A study of Mus musculus with 15 samples.

Results

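The complement and coagulation genes described here are 39 genes taken by symbol from the deposited table of mouse liver transcripts, out of 16809 genes. The rule for picking them reads symbols and no measured value, but it was set with earlier results of these data known. All 39 passed the filter on low counts and were tested among 12658 genes. By role they comprise 8 genes that start the classical and lectin pathways of complement, 4 genes around C3, 8 genes of the terminal pathway or its control, 10 procoagulant factors, the 3 fibrinogen chains and 6 anticoagulants or fibrinolysis genes. Liver RNA was sequenced from 5 groups with 3 libraries each, all labelled as WT mice. Control mice received standard feed, and model mice received for 6 weeks a diet of 78.8% such feed with lard (10%), egg yolk powder (10%), cholesterol (1%) and sodium cholate (0.2%). The other groups had 6 weeks of a high-fat diet, for which no recipe is labelled, and a daily oral gavage. Quercetin was dosed at 200 mg/kg/day, the myricetin dose was 75 mg/kg/day and the kaempferol dose was 100 mg/kg/day. These compounds are plant flavonols that differ in how many hydroxyl groups their B ring carries, fewest in kaempferol and most in myricetin. The labels give neither sex nor strain, fasting, time of day or any gavage of the control and model mice, and whether each library came from its own mouse is not stated, so p-values measure the spread between libraries, which may be technical.

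Each library held 15853767 to 17576502 expected counts, and the members took 3.59% to 4.91% of them. Hepatocyte markers were abundant in every group, with summed levels of 60979 to 108193 CPM over 10 genes (CPM are counts divided by the TMM-scaled library size), so the label of liver matched the defining markers. Names of libraries join the group and the number of the title (control 1, 2 and 3, model 1, 2 and 5, quercetin 2, 5 and 8, myricetin 5, 7 and 8, kaempferol 3, 5 and 8), and values are given in that order. Quercetin 8 stood furthest from its group, with a chi-square per degree of freedom over genes of 129 against quercetin 2 and 79.7 against quercetin 5, where the other pairs of replicates gave 15.2 to 46.1. Tissue was sequenced in bulk, so fewer cells of a type and less RNA per cell cannot be told apart.

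Complement is a set of plasma proteins, made largely by hepatocytes, that marks and lyses microbes. Mannose-binding lectins (Mbl1, Mbl2) with their proteases (Masp1, Masp2) and the C1 proteases (C1ra, C1s1) cleave C4 and C2, whose fragments form an enzyme that cleaves C3, and C5 (gene Hc in the mouse), C6, C8 and C9 then assemble into the membrane attack complex. Coagulation runs from contact factors (F12, Klkb1, Kng1, F11) or from tissue factor with F7 through F10 and F5 to thrombin (F2), which turns fibrinogen (Fga, Fgb, Fgg) into fibrin. Protein C (Proc), protein S (Pros1) and tissue factor pathway inhibitor (Tfpi) restrain clotting, and plasminogen (Plg) dissolves the clot. Fibrinogen and several complement components are acute phase proteins, made in larger amounts under interleukin-6.

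Several members lie beside each other in the genome (GRCm38.p6). The fibrinogen genes follow in the order Fgg, Fga and Fgb on chromosome 3, with gaps of 11.1 and 8.62 kb, C8b lies 11.1 kb from C8a, F11 4.63 kb from Klkb1, and F7 1.50 kb from F10. Cfb and C2 are 88 bases apart. Promoters are shown for C6, C8b and C9, the members that passed with quercetin, and for the fibrinogen chains, which led the kaempferol comparison. The sequences are those of RefSeq on GRCm38.p6, from 250 bases before to 50 bases after the annotated start, written along the gene's strand. For C6 the start used lies inside the gene, which begins at 4727067. Part of the bases before that start is thus gene sequence, the stretch with the marked match included. Capitals mark matches, on either strand, to an HNF1 site (GTTAAT), a C/EBP site (TTGCNNAA), a STAT site (TTCNNNGAA) or a type II interleukin-6 element (CTGGGAA).
C6 (chr15:4726960-4727259, plus strand): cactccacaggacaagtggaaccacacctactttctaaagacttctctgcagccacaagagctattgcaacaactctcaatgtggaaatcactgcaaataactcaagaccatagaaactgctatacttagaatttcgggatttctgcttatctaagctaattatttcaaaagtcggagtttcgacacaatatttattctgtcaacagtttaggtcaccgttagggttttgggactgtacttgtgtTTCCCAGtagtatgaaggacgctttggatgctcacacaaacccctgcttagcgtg
C8b (chr4:104766067-104766366, plus strand): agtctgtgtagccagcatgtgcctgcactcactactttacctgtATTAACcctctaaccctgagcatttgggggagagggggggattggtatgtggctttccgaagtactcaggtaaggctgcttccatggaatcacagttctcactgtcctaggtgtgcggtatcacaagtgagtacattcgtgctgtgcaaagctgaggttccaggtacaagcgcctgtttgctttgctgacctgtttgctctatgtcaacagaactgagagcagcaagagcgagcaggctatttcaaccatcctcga
C9 (chr15:6445096-6445395, plus strand): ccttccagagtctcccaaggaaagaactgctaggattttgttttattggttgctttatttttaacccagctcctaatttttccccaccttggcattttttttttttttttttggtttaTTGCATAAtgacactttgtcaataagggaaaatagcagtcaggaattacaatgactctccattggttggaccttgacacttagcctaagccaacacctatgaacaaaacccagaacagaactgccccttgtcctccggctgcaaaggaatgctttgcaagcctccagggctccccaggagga
Fga (chr3:83025903-83026202, plus strand): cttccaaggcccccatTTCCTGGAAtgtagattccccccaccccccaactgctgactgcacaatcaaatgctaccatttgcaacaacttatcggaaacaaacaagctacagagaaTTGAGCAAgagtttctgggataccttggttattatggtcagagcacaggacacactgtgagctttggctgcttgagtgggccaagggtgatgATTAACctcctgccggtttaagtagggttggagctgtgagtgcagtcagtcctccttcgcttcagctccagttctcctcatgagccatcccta
Fgb (chr3:83049814-83050113, minus strand): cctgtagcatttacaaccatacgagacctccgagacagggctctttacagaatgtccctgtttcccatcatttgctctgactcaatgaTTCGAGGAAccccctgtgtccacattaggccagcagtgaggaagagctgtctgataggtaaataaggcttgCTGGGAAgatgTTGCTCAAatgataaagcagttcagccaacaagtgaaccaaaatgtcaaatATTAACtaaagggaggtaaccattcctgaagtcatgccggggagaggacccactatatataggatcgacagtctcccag
Fgg (chr3:83007474-83007773, plus strand): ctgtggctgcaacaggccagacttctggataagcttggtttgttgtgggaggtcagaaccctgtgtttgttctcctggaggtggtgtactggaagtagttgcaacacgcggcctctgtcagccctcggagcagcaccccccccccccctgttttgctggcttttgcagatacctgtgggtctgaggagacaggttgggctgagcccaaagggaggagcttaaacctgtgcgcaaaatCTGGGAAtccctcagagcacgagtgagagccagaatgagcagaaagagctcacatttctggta
C6 held the interleukin-6 element, C8b the HNF1 site and C9 the C/EBP site, so no motif was shared by these 3 promoters. Fgb held all 4 motifs, Fga held 3 (without the interleukin-6 element) and Fgg held only the interleukin-6 element. No 2 matches overlapped in these sequences. A promoter sequence was given for 30 of the 39 members. Among these, the HNF1 site was found in 11 members (7.1% of 32851 promoters of the same length held it), the C/EBP site in 10 (10.8%), the STAT site in 8 (8.3%) and the interleukin-6 element in 8 (11.1%). A match of letters is a description and not evidence of binding.

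Transcript levels per length, in the authors' TPM (levels scaled to transcript length and library), spanned from Tfpi to fibrinogen. Fgb (median over 15 libraries 3800.4 TPM), Fgg (2900.4 TPM) and Fga (2248 TPM) were highest, followed by vitronectin (Vtn, an inhibitor of the terminal complex, 2138 TPM) and C3 (1818 TPM). Among the terminal components, C8g (423 TPM) and C9 (378 TPM) stood above Hc (231 TPM) and C6 (184 TPM), and the ranges of neighbours in this order overlapped over the 15 libraries while those of C8g and C6 did not. Lowest were Masp1 (31.3 TPM), Pros1 (25.1 TPM) and Tfpi (2.47 TPM), the last of which endothelial cells make in quantity. Tfpi rested on 21 to 107 counts per library, and every other member on at least 708. The levels varied least for Plg, with a coefficient of variation of 6.53% over the 15 CPM values, and most for C6 (21.4%), Mbl2 (29.7%) and Tfpi (37.3%).

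**Figure D1:**
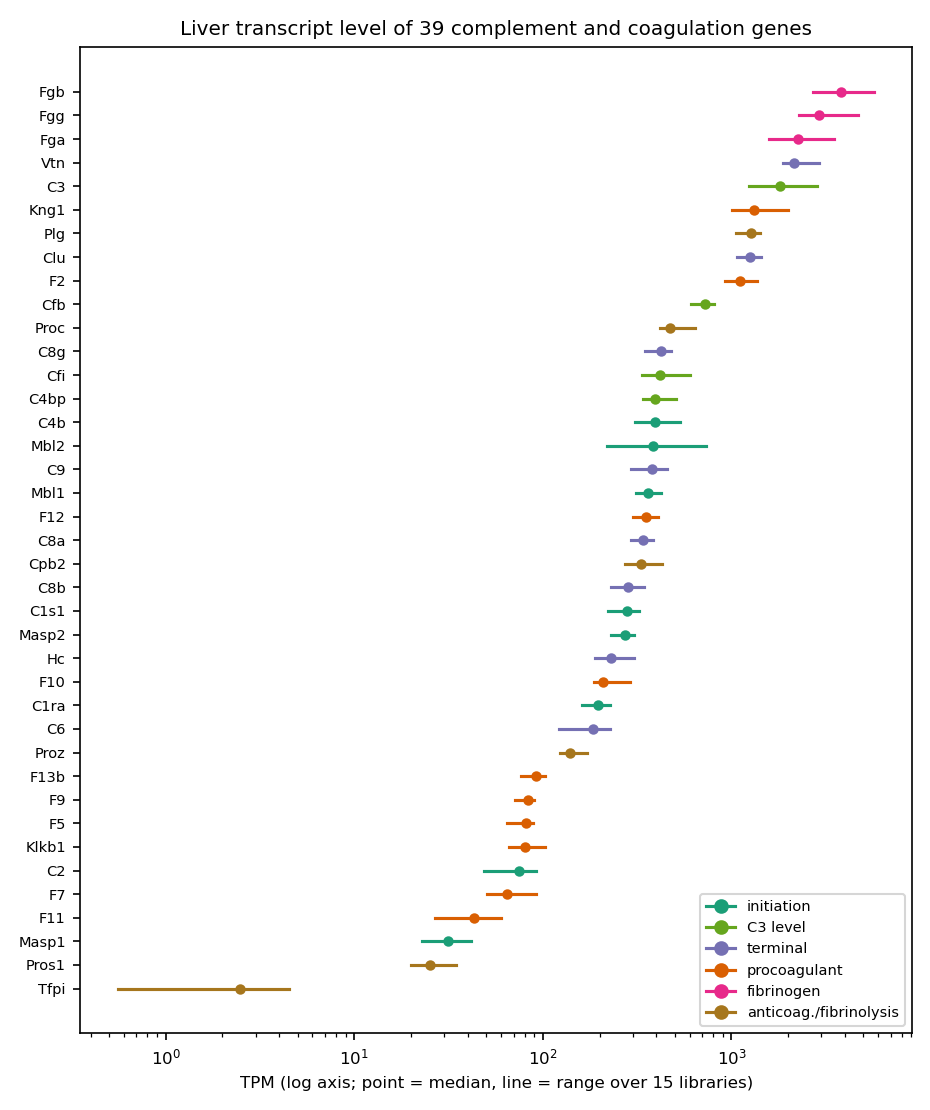
Level of each of the 39 genes on a log axis in TPM, with the median (point) and range (line) over 15 libraries, coloured by role. The fibrinogen chains lie at the top, and Tfpi, at a median of 2.47 TPM, lies far below the other genes.

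An F test over the 5 groups in edgeR, which asks whether any group differs, passed for 8 of the 39 members (F11, Tfpi, Kng1, C2, C6, Fga, Mbl2 and C8b), or 20.5%, where 16.1% of all genes passed. Passing here and below means an adjusted p under 0.05, Benjamini-Hochberg over all genes tested. The heat map of members by library shows where the single values lay.

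**Figure D2:**
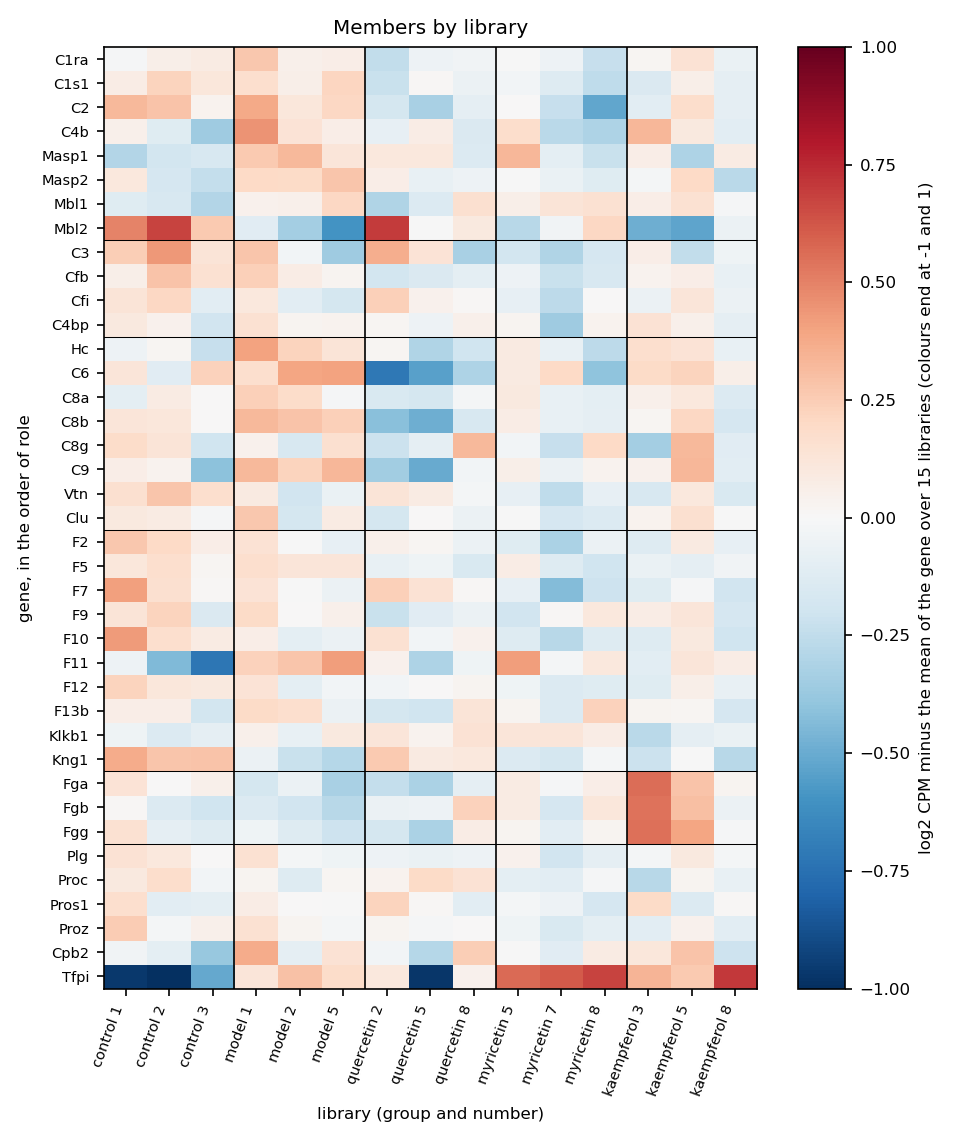
Log2 CPM of each member minus its mean over 15 libraries, by library (columns) and gene in the order of role (rows). Among the deepest shifts are Tfpi and Mbl2 between the control and the model, C6, C8b and C9 in the quercetin libraries and the fibrinogen chains in kaempferol 3.

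The model against the control asks what the cholesterol-rich diet did to these genes. Mbl2 and Kng1 fell, F11 and Tfpi rose, and the other 35 members did not pass. The 4 that passed are 10.3% of the members, against 4.46% of all genes. In each direction 2 members passed (5.13%), where 2.2% of all genes passed as higher and 2.27% as lower. The median log2 fold change of the members was 0.01, against -0.01 over all genes, and 22 of the 39 values were positive (20 with library totals).

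Among the genes that start complement, Mbl2 (chr19:30232906-30239687), a lectin that binds microbial sugars, fell. It was at 367, 414 and 311 CPM in the control and at 240.3, 205 and 171 CPM in the model, a log2 fold change of -0.82 ± 0.20 (SE; edgeR adjusted p = 0.0296). The groups did not overlap. Its relative Mbl1 was at 258, 251 and 229 CPM in the control and 289, 291 and 324 CPM in the model, a log2 fold change of 0.29 that did not pass (edgeR adjusted p = 0.138). The ratio of Mbl2 to Mbl1 TPM within a library was 1.63, 1.77 and 1.49 in the control and 0.979, 0.888 and 0.649 in the model. This ratio needs no scaling between libraries, and it did not overlap between the groups (exact 2-sided permutation p = 0.1, the smallest that 3 against 3 libraries allow). The other 7 genes of this role had positive log2 fold changes (C1s1 at 0.0085 turned negative with library totals), and none passed in edgeR. Masp1, the protease that cleaves Masp2, came nearest with 0.45 (edgeR adjusted p = 0.0714).

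Of the terminal components, 6 of 8 had positive values with a median log2 fold change of 0.17, and 0 of 8 passed in edgeR or DESeq2. At an unadjusted p under 0.05 in edgeR there were 3, 2 higher and 1 lower (Vtn, log2 fold change -0.26). The share of all genes at that threshold was not counted in this comparison. C9, which forms the pore, was at 595, 583 and 427 CPM in the control and 711, 662 and 715 CPM in the model (log2 fold change 0.38, edgeR adjusted p = 0.141). Hc had a log2 fold change of 0.34 (edgeR adjusted p = 0.126). C3 was at 6438, 7353 and 5953 CPM against 6573, 5332 and 4252 CPM, with overlapping groups and a log2 fold change of -0.29 (edgeR adjusted p = 0.358).

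Among the coagulation genes, members of the contact system moved in opposite directions. F11 (chr8:45240659-45262055), the protease that activates F9, rose from 69.9, 53.3 and 44.0 CPM in the control to 84.8, 87.8 and 96.8 CPM in the model, a log2 fold change of 0.69 ± 0.15 (edgeR adjusted p = 0.021). Its neighbour Klkb1, plasma kallikrein, had a log2 fold change of 0.12 and did not pass. Kng1 (chr16:23058220-23082078), the kininogen from which kallikrein releases bradykinin, fell from 2450.1, 2287 and 2300.4 CPM to 1818, 1624 and 1554 CPM, a log2 fold change of -0.49 ± 0.11 (edgeR adjusted p = 0.021). Every model library lay above every control library for F11 and below them for Kng1. Kng1 has a close copy, Kng2, and the authors' expected counts may divide reads shared between them. Such sharing was not measured, so each single value is uncertain. Kng2, which is no member, fell too, from 282, 300.2 and 288 CPM to 199, 184 and 169.9 CPM (log2 fold change -0.66 ± 0.10, edgeR adjusted p = 0.00525).

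Tfpi (chr2:84432855-84476775), which inhibits F7 with tissue factor, rose from 1.90, 1.35 and 2.61 CPM to 4.04, 4.54 and 4.22 CPM, a log2 fold change of 1.12 ± 0.27 (edgeR adjusted p = 0.0293). The groups did not overlap, at low counts. Endothelial markers moved with it: 4 of 10 rose in the model (Stab2, Cdh5, Gpr182 and Tek), and their summed level was 101 to 156 CPM in the control and 166 to 221 CPM in the model, with none of the 10 at 0. Their part in the rise of Tfpi was not tested. The fibrinogen chains had log2 fold changes of -0.25 (Fga), -0.10 (Fgb) and -0.11 (Fgg), and none passed.

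These calls depended on single libraries. Left out 1 at a time, control 2 or model 5 left 0 members passing, and control 3, model 1 or model 2 left 1, while the log2 fold changes kept their sign (Mbl2 -0.95 to -0.70, Kng1 -0.56 to -0.44, F11 0.54 to 0.88, Tfpi 0.92 to 1.39). Other calls on the same libraries passed the same 4 genes and Masp1: DESeq2 called 5 members (8.22% of all genes), and the q values of the authors' deposited table called 5 (6.28% of all genes).

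**Figure D3:**
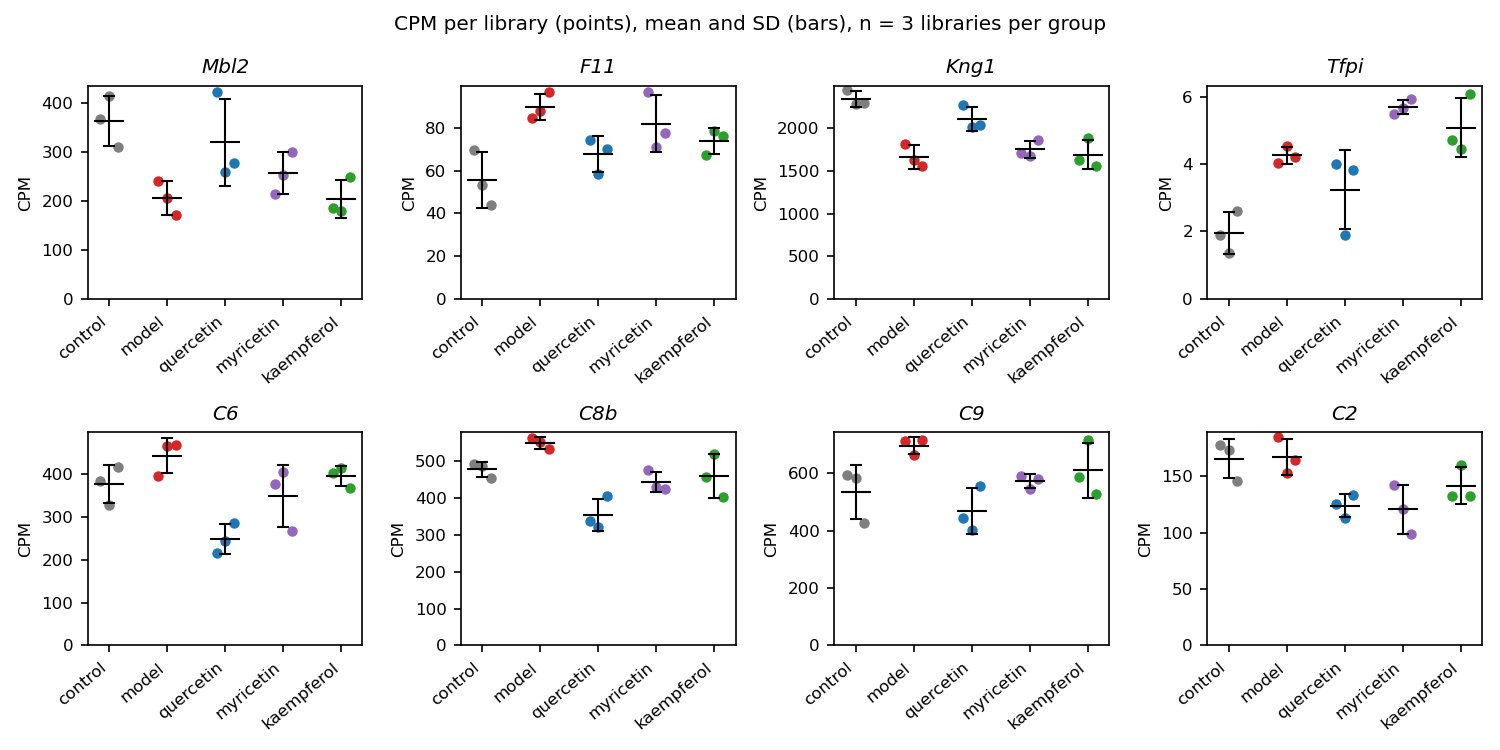
CPM by library (points) with the mean and SD of each group (bars, n = 3) for the 7 members that passed in a pairwise comparison and for C2. Mbl2 and Kng1 are lower and F11 and Tfpi higher in the model than in the control, and C6, C8b and C9 are lower with quercetin than in the model.

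Quercetin against the model compares mice on a high-fat diet with quercetin by gavage to mice on the model diet. No recipe of the former diet and no gavage of model mice is labelled, so flavonol, gavage and diet cannot be told apart. In the terminal pathway of complement C6, C8b and C9 fell, and the other 36 members, the 19 coagulation genes among them, did not pass in edgeR. These 3 members are 7.69% of the list, where 7.82% of all genes passed, so the count itself is near the background. None of the members rose (4.06% of all genes did) and 3 fell (3.76% of all genes did). Of the 39 members, 27 had negative log2 fold changes (19 with library totals in place of TMM factors, described below), with a median of -0.15 against 0.01 over all genes. Several of the 27 had a higher mean TPM with quercetin than in the model, as listed below.

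C6 (chr15:4727067-4804045), the first component to join C5b, was at 396, 466 and 467 CPM in the model and at 216, 243 and 285 CPM with quercetin. Its log2 fold change was -0.84 ± 0.15 (edgeR adjusted p = 0.00291). C8b (chr4:104766317-104804548), the beta chain of C8, was at 563, 551 and 532 CPM in the model and 338, 322 and 404 CPM with quercetin, a log2 fold change of -0.63 ± 0.11 (edgeR adjusted p = 0.00305). For both genes every quercetin library was also below every control library. C9 (chr15:6445346-6498825) was at 711, 662 and 715 CPM in the model and 446, 400.4 and 556 CPM with quercetin, a log2 fold change of -0.57 ± 0.15 (edgeR adjusted p = 0.0247). Quercetin and model did not overlap for C9, while quercetin overlapped the control (595, 583 and 427 CPM).

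The other terminal genes were Hc, which splits to start the complex, with a log2 fold change of -0.41 (edgeR adjusted p = 0.0561), C8a with -0.26, Clu with -0.15 (just above 0 with library totals), C8g with 0.0048 (negative with RLE factors) and Vtn with 0.12. Clu (clusterin) and Vtn hold the terminal complex in solution, and neither passed. C8a and C8b, neighbours whose products join in 1 protein, were both below the model in every quercetin library, C8a at 820.4, 805 and 895 CPM against 1074, 1031 and 904 CPM (edgeR adjusted p = 0.164). Summed over C6, C8b and C9, the authors' TPM were 978, 1017 and 906 in the model and 721, 679.9 and 695 with quercetin, and in the control they were 860.2, 789 and 785. These genes were summed because they passed, so the order of the sums is no further evidence. Markers of hepatocytes summed to 82479 to 99600 CPM with quercetin and 67848 to 87910 CPM in the model, and most of this sum was Alb. Of the 10, 6 had positive and 4 negative log2 fold changes. None of the 10 was at 0, and 0 of 10 passed in edgeR or DESeq2 (2 at an unadjusted p under 0.05 in edgeR, both higher). The part of hepatocytes in these falls was not tested.

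Upstream, 7 of the 8 genes that start complement had negative log2 fold changes and Mbl2 a positive one. In edgeR 0 of 8 passed, and DESeq2 called C2 and Mbl2. At an unadjusted p under 0.05 in edgeR there were 4, 1 higher and 3 lower. The share of all genes at that threshold was not counted for quercetin against the model. The direction of Mbl1 and of several other members depended on the measure. For Mbl1 the log2 fold change from counts was -0.18, but its TPM were 391, 425 and 412 with quercetin against 346.5, 341 and 338 in the model. C4bp, Clu, F2, F12, Fga, Fgg, Plg, Proz and Cpb2 also had negative log2 fold changes from counts and a higher mean TPM with quercetin. Mean TPM were 457 against 395 for C4bp and 1219 against 1074 for F2, for example. C2, which supplies the protease of the C3-cleaving enzyme, was at 185, 153 and 164 CPM in the model and 126, 113 and 133 CPM with quercetin, without overlap (log2 fold change -0.43 ± 0.13, edgeR adjusted p = 0.0568). In edgeR C2 passed the F test over the 5 groups and no pairwise test, and in the control it was at 178, 173 and 146 CPM. Mbl2 was at 422, 259 and 279 CPM with quercetin, above all model libraries and widely spread (log2 fold change 0.64 ± 0.20, edgeR adjusted p = 0.0618). C3 overlapped between the groups, at 6979.5, 5967 and 4345 CPM with quercetin (log2 fold change 0.10).

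Of the coagulation genes, Kng1 was at 2269, 2013 and 2038 CPM with quercetin, above all model libraries and, in all 3, below the lowest control library (log2 fold change 0.34 ± 0.11, edgeR adjusted p = 0.0701). F11 was at 74.6, 58.6 and 70.3 CPM, below all model libraries (log2 fold change -0.40 ± 0.15, edgeR adjusted p = 0.118). Tfpi was at 4.00, 1.89 and 3.82 CPM, with quercetin 5 inside the range of the control and the other 2 libraries just under the lowest model library (edgeR adjusted p = 0.373). As this comparison and that of the model against the control share the model libraries, their values are not independent.

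The calls for C6 and C8b were kept when each of the 15 libraries was left out in turn. Without quercetin 8, the library apart from its group, log2 fold changes were -0.95 (C6), -0.74 (C8b) and -0.72 (C9). C9 was lost without any of model 1, 2 or 5 or quercetin 2 or 5 (edgeR adjusted p of 0.0634 to 0.105). DESeq2 called 9 members (C6, C8b, C9, Hc, C2, Cfb, F5, Kng1 and Mbl2) where it called 10.4% of all genes, and the authors' deposited table called 7 (C6, C8b, C9, Hc, C2, F11 and Mbl2) where 5.95% of its genes had a q value under 0.05.

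Scaling mattered here. With library totals in place of TMM factors, a choice added after seeing the data, the median log2 fold change of all genes moved by 0.146 and that of the members to 0.00083, which leaves the members about as far below all genes as before. Genes passing then numbered 1476 higher and 255 lower, in place of 514 and 476, so 13.7% of all genes passed (11.7% as higher and 2.01% as lower) with 6 members. C6, C8b and C9 still fell on that scale, by 0.70, 0.49 and 0.44 in log2, and Kng1, Mbl2 and Proc passed as higher.

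**Figure D4:**
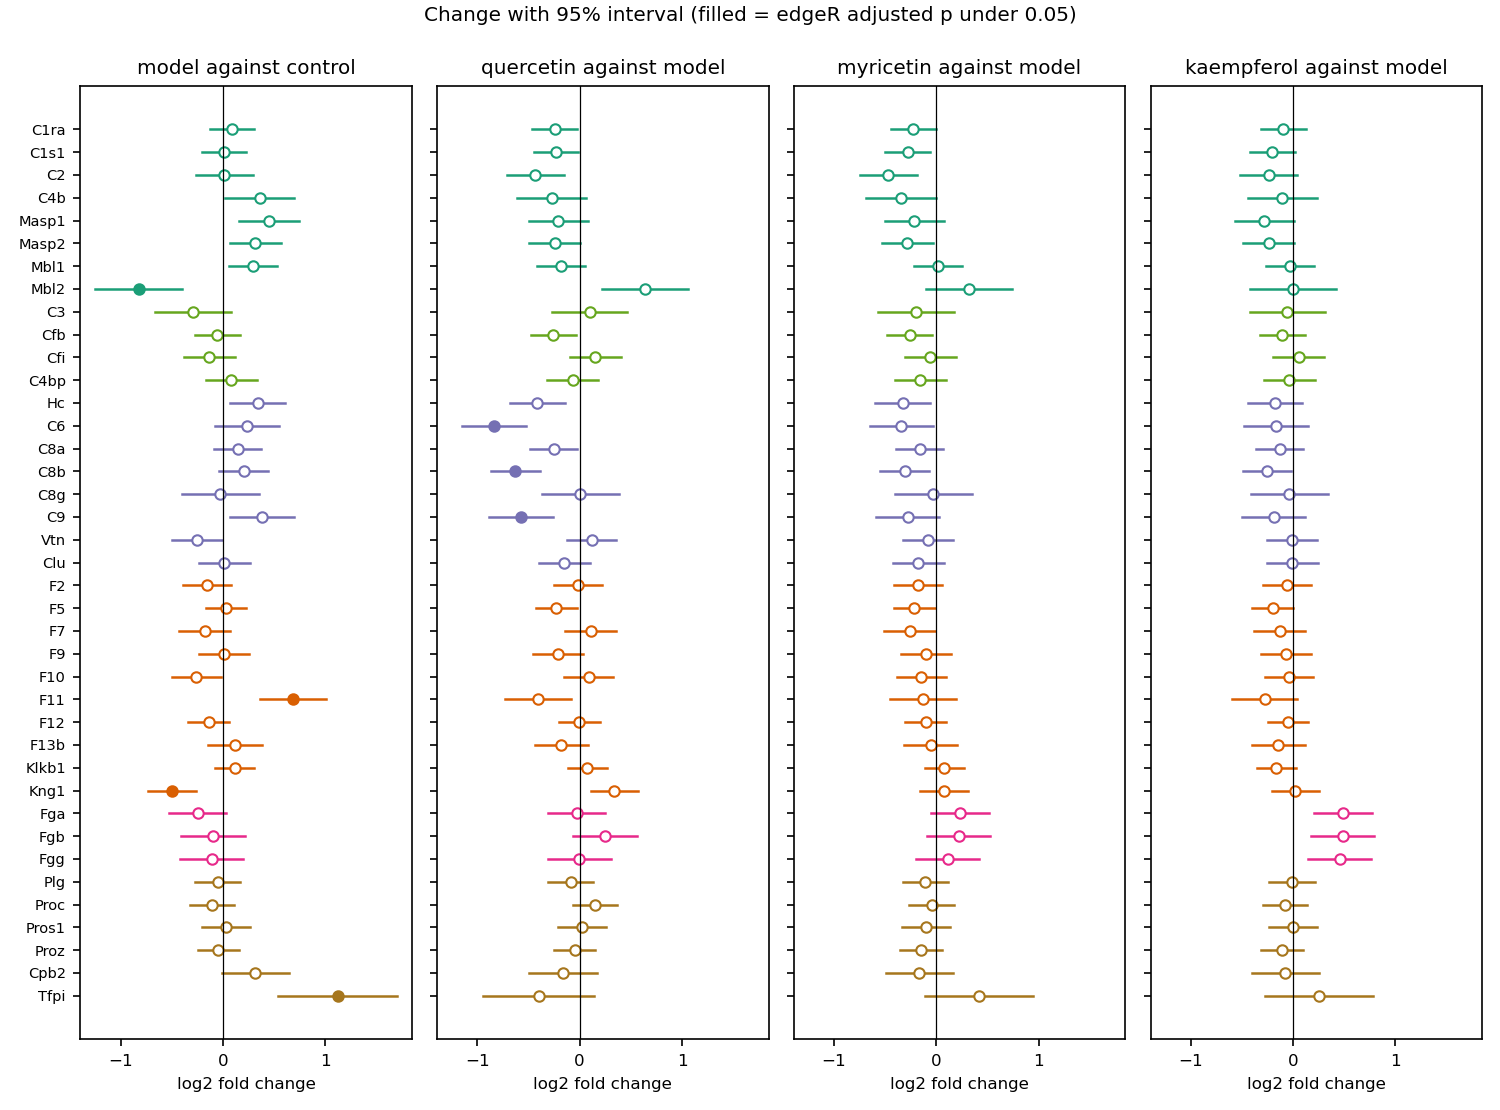
Log2 fold change (points) with 95% intervals (lines) of the 39 members, by role from top to bottom, in the 4 comparisons. Filled points passed in edgeR: 4 in the model against the control, 3 with quercetin and none with myricetin or kaempferol.

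Myricetin against the model gave 0 members passing in edgeR, where 0.395% of all genes passed. At an unadjusted p under 0.05 there were 11 members (28.2%), all lower, where 11.9% of all genes reached it in either direction. They were C1ra, C1s1, C2, C4b, Masp2, Cfb, Hc, C6, C8b, F5 and F7, of which 9 are complement genes. The median log2 fold change was -0.15 over the members and -0.22 over the 20 complement genes (-0.05 over the members with library totals, which moved the median of all genes by 0.0972), against 0.01 over all genes. Without model 1 the median over the members was -0.08.

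C2 had the smallest p, at 143, 121 and 99.2 CPM with myricetin, below all model libraries (log2 fold change -0.47 ± 0.13, 95% interval -0.75 to -0.19, edgeR adjusted p = 0.146). C8b was at 476, 428 and 425 CPM, also below all model libraries (log2 fold change -0.31 ± 0.11, edgeR adjusted p = 0.265). C1s1, the C1 protease that cleaves C4 and C2, was at 587, 547 and 500.3 CPM against 671, 623 and 692 CPM in the model (log2 fold change -0.28 ± 0.10, edgeR adjusted p = 0.268). C1s1 and C1ra have near copies (C1s2 and C1rb), as C4b has in C4a, so their single values are uncertain. C6 was at 376, 405 and 268 CPM and overlapped the model. C9 was at 591, 546 and 581 CPM, with a log2 fold change of -0.28 (edgeR adjusted p = 0.479).

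Of the members that differed between model and control, Mbl2 was at 215, 254 and 301 CPM, Kng1 at 1717, 1676 and 1866 CPM and F11 at 97.0, 71.3 and 77.7 CPM with myricetin, each overlapping the model. Tfpi was at 5.49, 5.67 and 5.92 CPM, above all model libraries, and did not pass (log2 fold change 0.42 ± 0.25, edgeR adjusted p = 0.547). The authors' deposited table called 0 members (1.73% of its genes), and DESeq2 called C2 (1.92% of all genes).

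Kaempferol against the model also gave 0 members passing in edgeR (0.0395% of all genes), with the fibrinogen chains as the 3 smallest p. At an unadjusted p under 0.05 there were 5 members (12.8%), Fga, Fgb and Fgg higher and C8b and F5 lower, where 11.7% of all genes reached it. DESeq2 called Fga alone (1.56% of all genes), and the authors' deposited table called 0 members (1.73% of its genes).

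Fga, the alpha chain whose end thrombin cleaves, was at 4096, 4424 and 3688 CPM in the model and 6818, 5615 and 4699 CPM with kaempferol (log2 fold change 0.49 ± 0.13, 95% interval 0.21 to 0.77, edgeR adjusted p = 0.151). Fgb, the beta chain, was at 3994, 3842 and 3623 CPM and 6395, 5405 and 4223 CPM (log2 fold change 0.48 ± 0.15, edgeR adjusted p = 0.189). Fgg, the gamma chain, was at 3495, 3292 and 3117 CPM and 5282, 4729.7 and 3579 CPM (log2 fold change 0.46 ± 0.14, edgeR adjusted p = 0.211). For each chain all kaempferol libraries lay above all model libraries, and kaempferol 3 was the highest of the 15 libraries. Without kaempferol 3 the log2 fold changes were 0.34, 0.33 and 0.33 for Fga, Fgb and Fgg. In the control Fga was at 5081, 4629.9 and 4789.7 CPM, above all model libraries and overlapping those of kaempferol.

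The 3 chains lie side by side on chromosome 3 and their products form 1 protein, and all 3 had their highest TPM in kaempferol 3. Their ratios stayed near each other with kaempferol: Fga over Fgb was 0.609, 0.594 and 0.627, against 0.588, 0.661 and 0.584 in the model. With quercetin the ratios were lower, Fga over Fgb at 0.517, 0.493 and 0.471 and Fgg over Fgb at 0.744, 0.675 and 0.722, where Fgg over Fgb was 0.861, 0.845 and 0.846 in the model. No quercetin library overlapped the model for either ratio (exact 2-sided permutation p = 0.1 for each, the smallest that 3 against 3 libraries allow). Fgg over Fgb was also below all model libraries with myricetin, at 0.777, 0.841 and 0.759 (exact 2-sided permutation p = 0.1), while Fga over Fgb with myricetin overlapped the model. In the control Fgg over Fgb was 0.889, 0.830 and 0.850, so myricetin 7 lay inside the control range. With kaempferol it was 0.816, 0.862 and 0.833, a wider range than in the model. The ratios were looked at after the values had been seen, and the single chains did not pass with quercetin (log2 fold changes -0.03 for Fga, 0.25 for Fgb and -0.0024 for Fgg, all above 0 with library totals).

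**Figure D5:**
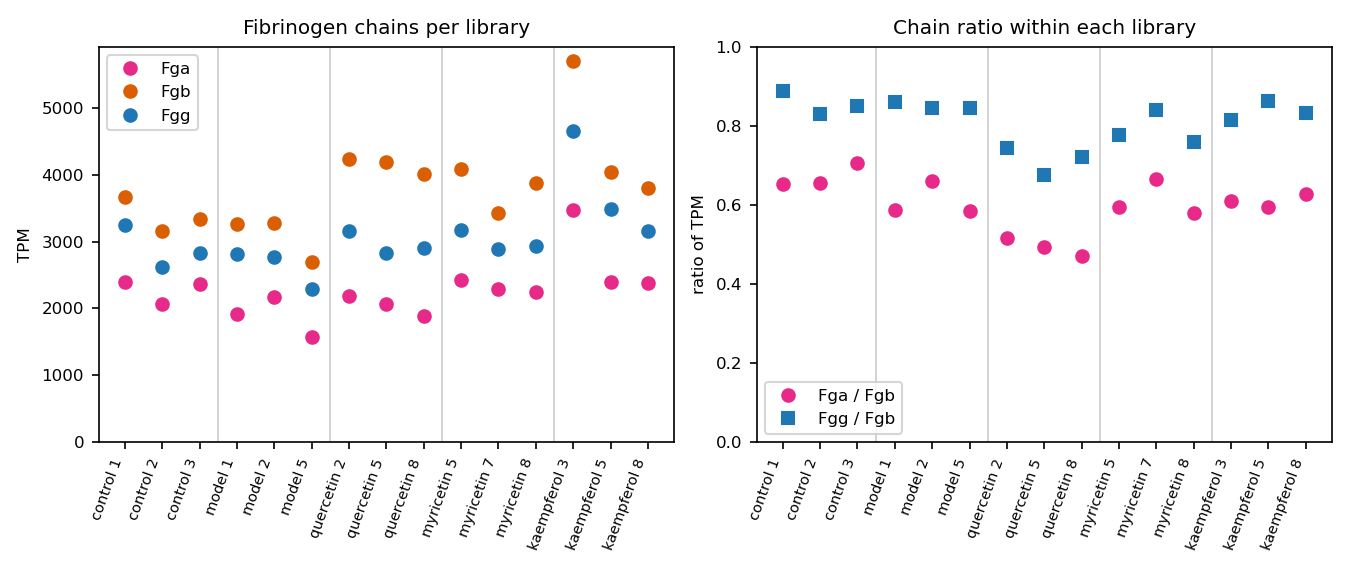
TPM of Fga, Fgb and Fgg in each library (left) and the ratio of Fga and of Fgg to Fgb within each library (right). Kaempferol 3 is highest for all chains, and the quercetin libraries hold the lowest ratios for both.

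Of the 20 complement genes 0 passed with kaempferol in edgeR or DESeq2. All 8 terminal and all 8 starting genes had log2 fold changes below 0, with medians of -0.15 for each, but with library totals 3 terminal and 2 starting genes were above 0. Among the 20, C8b alone was at an unadjusted p under 0.05 (457, 519 and 402 CPM, log2 fold change -0.26 ± 0.11, edgeR adjusted p = 0.373). C6 was at 404, 414 and 368 CPM and C9 at 586, 716 and 528 CPM, both overlapping the model. Mbl2 was at 185, 180.4 and 249.95 CPM (log2 fold change -0.0037, above 0 with library totals, 95% interval -0.42 to 0.42), Kng1 at 1631, 1886 and 1557 CPM, F11 at 67.2, 78.6 and 76.1 CPM and Tfpi at 4.70, 4.46 and 6.07 CPM.

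Side by side, the log2 fold changes against the model were -0.84, -0.34 and -0.17 for C6 with quercetin, myricetin and kaempferol, -0.63, -0.31 and -0.26 for C8b, and -0.57, -0.28 and -0.19 for C9. For Fga they were -0.03, 0.23 and 0.49. C6, C8b and C9 were picked because they passed with quercetin, and Fga because it had the smallest p with kaempferol. Picking them so favours larger sizes with those compounds, and the order of sizes is no evidence of a difference between compounds. The doses differed (200, 75 and 100 mg/kg/day) and the model libraries were shared, so the compounds were not compared with each other.

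Beyond the 39 members, 33 further complement genes and 32 further coagulation genes were read, of which 30 and 26 were tested. In the model 3 of these 30 complement genes rose in edgeR (10%), where 2.2% of all genes passed as higher, and the other 27 did not pass. DESeq2 called 7 of the 28 with an adjusted p, all higher, where it called 8.22% of all genes in either direction. The 3 were Colec12, a scavenger receptor of the collectin family (40.3, 38.1 and 41.9 CPM to 57.3, 55.8 and 67.7 CPM, edgeR adjusted p = 0.0157), C3ar1, the receptor of C3a (1.01, 1.03 and 0.559 CPM to 1.59, 2.68 and 2.24 CPM, edgeR adjusted p = 0.0296), and Cfd, factor D (edgeR adjusted p = 0.0287). Cfd, made mainly by fat cells, was at 0.0634, 0.0644 and 0.0621 CPM in the control and 2.39, 2.04 and 23.6 CPM in the model, where model 5 held most of it. The median log2 fold change over these 30 genes was 0.44, and the C1q chains, made by macrophages, had values of 0.68, 0.65 and 0.78 (edgeR adjusted p of 0.065 to 0.193). Macrophage markers were higher as well: 4 of 10 rose (Clec4f, Cd68, Csf1r and Mrc1), none of the 10 was at 0, and their summed level was 106 to 177 CPM in the control and 233 to 347 CPM in the model. Of 5 markers of fat cells only 2 had counts enough to be tested (Cfd and Car3), and both rose. The median sum over the list was 4090.4 CPM in the model, where 2 of 5 were at 0. In the control it was 1265 CPM, where 3 of 5 were at 0. Cfd reached at most 23.6 CPM in these groups, so nearly all of the sum was Car3, and the sum is not a measure of the whole list. Car3 was thus abundant in the control too, where 3 of 5 were at 0. The rises of Cfd and Car3 therefore do not show a rise of fat cell markers as a set. Of 10 hepatocyte markers only Hnf4a fell in edgeR (log2 fold change -0.72), with Alb added by DESeq2, and the summed level was 94698 to 108193 CPM in the control and 67848 to 87910 CPM in the model. Alb alone took 7.27% to 7.81% of counts in the control and 4.28% to 5.86% in the model. Most of this sum was thus Alb, and it is not a measure of the whole list. The part of these cell types in the results above was not tested. The calls of C3ar1, Cfd and Colec12 were each lost without control 2 or control 3, C3ar1 also without model 2 or 5, Cfd without control 1 and Colec12 without model 5 (edgeR adjusted p up to 0.132).

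Among the further coagulation genes in the model, F8, which endothelial cells make, rose from 6.97, 2.58 and 4.41 CPM to 7.23, 12.5 and 12.5 CPM (log2 fold change 1.21 ± 0.32, edgeR adjusted p = 0.0462), and Kng2 fell. F8 was lost in 11 of the 15 fits with a library left out, and Kng2 in none. With quercetin Kng2 rose to 310.2, 279.7 and 263 CPM (log2 fold change 0.63 ± 0.10, edgeR adjusted p = 0.00165), which is the direction of the value of its copy Kng1. F3, tissue factor, was at 2.45, 1.92 and 2.77 CPM in the model and 4.72, 4.55 and 3.82 CPM with quercetin (edgeR adjusted p = 0.0218) and was higher, at low levels. Vwf, von Willebrand factor of endothelial cells, fell from 8.45, 7.50 and 8.23 CPM to 4.61, 4.66 and 4.55 CPM (edgeR adjusted p = 0.0146), and Ggcx, the carboxylase that activates the vitamin K-dependent factors, from 129, 133 and 114 CPM to 97.7, 93.6 and 83.5 CPM (edgeR adjusted p = 0.0258). With a library left out the quercetin calls of Kng2 and Colec12 held in all 15 fits, Vwf was lost without model 1 (edgeR adjusted p = 0.0598), and F3 and Ggcx were each lost in 4 fits, among them those without model 1, model 2 and quercetin 5. Ggcx was also lost with library totals (edgeR adjusted p = 0.191). Of the further complement genes tested Colec12 alone passed, falling to 36.7, 37.4 and 45.2 CPM. Endothelial markers summed to 127 to 189 CPM with quercetin and 166 to 221 CPM in the model. All 10 had negative log2 fold changes with a median of -0.32, and 0 of 10 passed in edgeR or DESeq2 (2 at an unadjusted p under 0.05 in edgeR, both lower). The part of endothelial cells in the values above was not tested. Of 10 neutrophil markers only 4 had counts enough to be tested, and of these S100a8 and S100a9 rose, with 2 others not passing. Levels were low, as the 10 summed to 6.65 to 15.1 CPM with quercetin and 2.91 to 6.19 CPM in the model. With myricetin none of the further genes passed in edgeR or DESeq2. At an unadjusted p under 0.05 in edgeR there were 3 complement and 7 coagulation genes, where 11.9% of all genes reached it. With kaempferol none passed in edgeR. At an unadjusted p under 0.05 there were 10 of 30 complement genes, 9 of them higher, and 7 of 26 coagulation genes, 4 of them higher, where 11.7% of all genes reached it. DESeq2 called C1qb, C1qc and the complement receptor chains Itgb2 and Itgam as higher, and Cfd and Lman1 as lower. C1qb was at 29.0, 25.9 and 32.7 CPM in the model and 45.3, 43.2 and 84.3 CPM with kaempferol (log2 fold change 0.98 ± 0.27, edgeR adjusted p = 0.162), and Itgam at 0.612, 0.756 and 0.461 CPM and 2.55, 0.828 and 2.67 CPM (log2 fold change 1.71 ± 0.42, edgeR adjusted p = 0.124). Macrophage markers were also at higher values: all 10 had positive log2 fold changes with a median of 0.71, 0 passed in edgeR, 8 were at an unadjusted p under 0.05, and DESeq2 called Csf1r. None of the 10 was at 0, and their summed level was 233 to 347 CPM in the model and 406 to 914 CPM with kaempferol, highest in kaempferol 8. Their part in these values was not tested.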

How the data were processed

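Liver RNA of 15 libraries in 5 groups was analysed from 1 deposited table. The submitters' processing notes name RSEM 1.3.1, HISAT2 2.1.0, DESeq2 1.4.5 and Bowtie2 2.3.4.3, and the build GRCm38.p6, without roles or order. The authors deposited expected counts per gene (5.37% of values not whole), which are not scaled between libraries and were rounded here, and TPM values, which per the file headers are per length and library and served for levels between genes and ratios within a library. The authors' deposited table also gives a log2 fold change and a q-value from DESeq2 for 4 comparisons, and those q-values served for counts of calls. Strand was not stated.

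Counts passing filterByExpr (12658 genes) were scaled by TMM, and edgeR 4.0.16 (R 4.3.3) fitted its robust quasi-likelihood model to the 15 libraries together, with a mean for each group, which leaves 10 residual degrees of freedom. The common biological coefficient of variation was 0.155. Tests were 2-sided with Benjamini-Hochberg adjustment over all genes tested and a threshold of 0.05. A standard error is the absolute log2 fold change over the root of the F statistic, so it and the 95% intervals are approximate. CPM use the TMM-scaled library size. DESeq2 1.42.0, other scalings, filters and designs, and leaving out each library were alternatives, and the fits were tested on simulated data. The members, roles and lists were chosen with earlier results of these data known. Every passing member is named, or the 3 smallest p where none passed, with up to 4 passing further genes per direction. Depth was 15853767 to 17576502 expected counts per library, and intervals cover the spread between libraries only as far as 3 per group show it. Positions and promoters come from RefSeq (GRCm38.p6), and 9 members without a promoter entry are named only. The authors' FPKM and group averages were not used. 1 further gene that passed is not reported here.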

Additional observations from a re-analysis of the deposited data

How the results depend on the processing

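Under the 23 alternatives no sign changed among the named genes that passed or the 3 members with the smallest p with myricetin and with kaempferol, but the median over the members crossed 0 with quercetin (library totals), with kaempferol (0.0085 with the replicate block) and in the model (-0.03 with the block, as low as -0.04 with a library left out). DESeq2 called 1000 genes in the model against the control, 219 with myricetin and 197 with kaempferol. It called 9 members with quercetin, 1 with myricetin and 1 with kaempferol, where it called 10.4%, 1.92% and 1.56% of all genes. In the F test it called 18 members. Over the alternatives that keep all libraries, 0 to 18 members and 217 to 3043 genes passed that test. With 2 groups only, 125 genes passed with myricetin and 21 with kaempferol, and without a filter 18 passed with kaempferol. Library totals without scaling factors, a choice added after seeing the data, gave 1731 genes and 6 members with quercetin, whose median was then 0.00083, 77 genes with myricetin (64 of them higher, in place of 23 of 50) and 10 with kaempferol (8 of them higher, in place of 2 of 5). RLE factors moved the median of all genes by less than 0.01. Leaving out each library gave 82 to 919 genes and 0 to 5 members for the model against the control (fewest genes without control 2, model 5, control 3 and model 1), 429 to 1121 genes and 2 to 5 members with quercetin, 13 to 67 and 0 with myricetin, 0 to 39 and 0 with kaempferol, and 1079 to 2082 and 4 to 10 in the F test. The medians over the members then lay at -0.04 to 0.05, -0.16 to -0.04, -0.18 to -0.08 and -0.14 to -0.02 in the 4 comparisons, nearest to 0 in the last 3 without model 1. In members the sign changed in at least 1 setting for 10, 11, 13 and 20 of the 39, none of which passed. The calls of the further genes named kept their sign, and Kng2 and Colec12 with quercetin and Kng2 in the model held with each library left out. The cause of these moves was not tested.

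Replicate numbers name samples and do not pair them: groups compared share 1 or 2 numbers, and libraries with a shared number had correlations of deviations of -0.238 to 0.0978. With the replicate block 43 genes and 0 members passed in the model against the control, 236 genes and 1 member (C6, edgeR adjusted p = 0.0243) with quercetin, 5 genes with myricetin, 1 with kaempferol, and 217 genes and 0 members in the F test. Tfpi, at 21 to 107 counts per library, is the member that depth limits most.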

Other observations

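Ratios within a library were also read after their values had been seen. Fga over Fgg, the ratio of the fibrinogen alpha to the gamma chain in TPM, was 0.785 ± 0.0487 in control mice (SD, n = 3) and 0.718 ± 0.0557 in model mice. Quercetin libraries gave 0.692 ± 0.0388, myricetin libraries 0.773 ± 0.0150 and kaempferol libraries 0.729 ± 0.0350, with overlap between the model and each other group. Mbl2 over Mbl1 was 1.27 ± 0.520 with quercetin, where quercetin 2 alone (1.87) lay at or above the control libraries.

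The summed TPM of the 3 fibrinogen chains was 13848 in kaempferol 3 and 6559.7 in model 5, the highest and the lowest of the 15 libraries. The members as a whole took 3.03% of TPM in kaempferol 3 and 2.06% in model 5.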
